A study of Homo sapiens with 12 samples.

Results

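The genes described here are 29 genes of cholesterol synthesis and sterol regulation, chosen by name from the 61209 gene names of a table of RNA sequencing counts. They comprise 5 enzymes from acetyl-CoA condensation to the mevalonate steps, 5 enzymes of the isoprenoid and squalene steps, 9 enzymes between squalene epoxide and cholesterol, 4 genes of the SREBP regulatory system, 3 sterol transport genes and 3 targets of the liver X receptors (LXR). All 29 were in the table and 28 passed the filter on low counts. The exception was the sterol exporter ABCG1, which had 0 or 1 count in every library and was not tested.

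RNA was measured in 12 libraries of A375 cells, an established human melanoma line, with 3 libraries in each of 4 groups. Fed control cells had glucose, and starved control cells were collected after 5 h of glucose starvation. Fed and starved OGDH-depleted cells went through the same pair of conditions after loss of OGDH, whose product is the decarboxylating subunit of 2-oxoglutarate dehydrogenase in the citric acid cycle. The depleted cells are called KO in the sample titles and knockdown in the series text. How OGDH was lost, and whether the depleted cells are a clone or a pool, is not given in the sources used here. Nor is it said that replicate libraries were grown as separate cultures. The p-values therefore measure only how these samples vary, which may be technical.

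Cholesterol is built from acetyl-CoA through mevalonate, isoprenoids, squalene and lanosterol. The genes of this route are switched on by the SREBP-2 transcription factor, the product of SREBF2, which the escort protein SCAP carries from the endoplasmic reticulum to the Golgi for cleavage when membrane cholesterol is low. The INSIG proteins hold SCAP back when sterols are plentiful. LXRs act in the other direction: they are activated by oxysterols and turn on genes for sterol export and reduced uptake, among them ABCA1, ABCG1 and MYLIP.

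Library depth was 21556273 to 25546615 counted fragments. The unit of level is CPM, a gene's counts scaled to library size with TMM factors, and each ± is the SD of n = 3 libraries. OGDH was at 154 ± 11.9 CPM in fed control cells and 39.8 ± 4.68 CPM in fed OGDH-depleted cells, and at 131 ± 2.01 and 32.8 ± 0.90 CPM in the starved pair, so its messenger was lowered in every depleted library. Among 9 melanocyte lineage markers, SOX10 (299 to 670 CPM) and MITF (23.5 to 49.3 CPM) were present, PMEL and MLANA stayed below 2 CPM and TYR was at 0 in 10 of 12 libraries. The summed level of those 9 was 611 to 715 CPM in fed control, 340.2 to 430.0 CPM in starved control, 583 to 705 CPM in fed depleted and 539.8 to 619 CPM in starved depleted cells. Summed dedifferentiation markers (AXL, NGFR, EGFR and SOX9) were lowest in fed control cells (469 to 531 CPM) and highest in starved control cells (1044 to 1052 CPM), and stood at 761 to 786 CPM in fed and 717 to 751 CPM in starved depleted cells. Their part in the results below was not tested, and in bulk RNA fewer cells of a kind and less RNA per cell cannot be told apart. The 5 blood cell markers summed to less than 3 CPM in every library, and the 3 fibroblast markers to 3.74 to 9.43 CPM. Of 3 epithelial markers, KRT8 was at 49.0 to 139 CPM, while EPCAM and CDH1 reached at most 0.260 and 0.112 CPM. The epithelial sum was 51.0 to 101 CPM in fed control, 72.4 to 139.6 CPM in starved control, 65.2 to 75.1 CPM in fed depleted and 49.1 to 84.9 CPM in starved depleted cells, and its part in the results was not tested either.

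Sterol genes tended to be displaced from their group means according to GC content in 3 of the 4 groups. This displacement is described first for library 2 of the fed control cells and library 3 of each starved group. The 9 sterol genes with a GC content of at least 55% (MVK, PMVK, MVD, FDPS, LSS, TM7SF2, DHCR7, SCAP and SREBF2, a limit chosen after the values were seen) were all below their group mean in fed control library 2 and in library 3 of the starved depleted cells, and all above it in library 3 of the starved control cells. Their median deviation was -0.34, -0.28 and 0.48 on the log2 scale in these libraries, in that order. Across the 28 genes, which share the libraries and are not replicates, deviation and GC content correlated at -0.72, -0.77 and 0.67. Not every gene followed its GC content. CYP51A1, with a GC content of 41.5%, moved with the GC-rich genes, by -0.847, -0.373 and 0.845. In fed control library 2 and starved control library 3 its deviation was the largest of the 28. Mitochondrially encoded transcripts took 14.6%, 9.71% and 4.11% of the counts in the same order, against a range of 3.06% to 14.6% over all 12. They took 4.97% and 6.35% in fed control libraries 1 and 3, and 14.4% and 13.2% in starved control libraries 1 and 2. The other libraries of these 3 groups were displaced too, since deviations from a group mean sum to about 0 within the group. The 9 GC-rich genes were all above the mean in fed control libraries 1 and 3 (median 0.22 and 0.15) and all below it in starved control libraries 1 and 2 (-0.18 and -0.16). In library 1 of the starved depleted cells all 9 were above, by a median of 0.38, more than the displacement of library 3 there, and in library 2 of that group 7 of 9 were above (median 0.03). The fed depleted libraries had correlations of -0.07 to 0.10 between deviation and GC content. The 3 libraries named first had the largest root mean square deviation over all tested genes, at 0.414, 0.409 and 0.348 (fed control 2, starved control 3 and starved depleted 3), while the next, starved depleted library 1, had 0.327. Counts of sterol genes past the test are given also without these 3 libraries, a choice made after the values were seen. The control libraries then left differ by starvation, mitochondrial share and GC displacement together, and these cannot be told apart there. Among the starved libraries left, the mitochondrial share was 14.4% and 13.2% in control and 3.06% and 5.12% in depleted cells. OGDH loss, mitochondrial share and GC displacement cannot be told apart among those either.

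**Figure D1:**
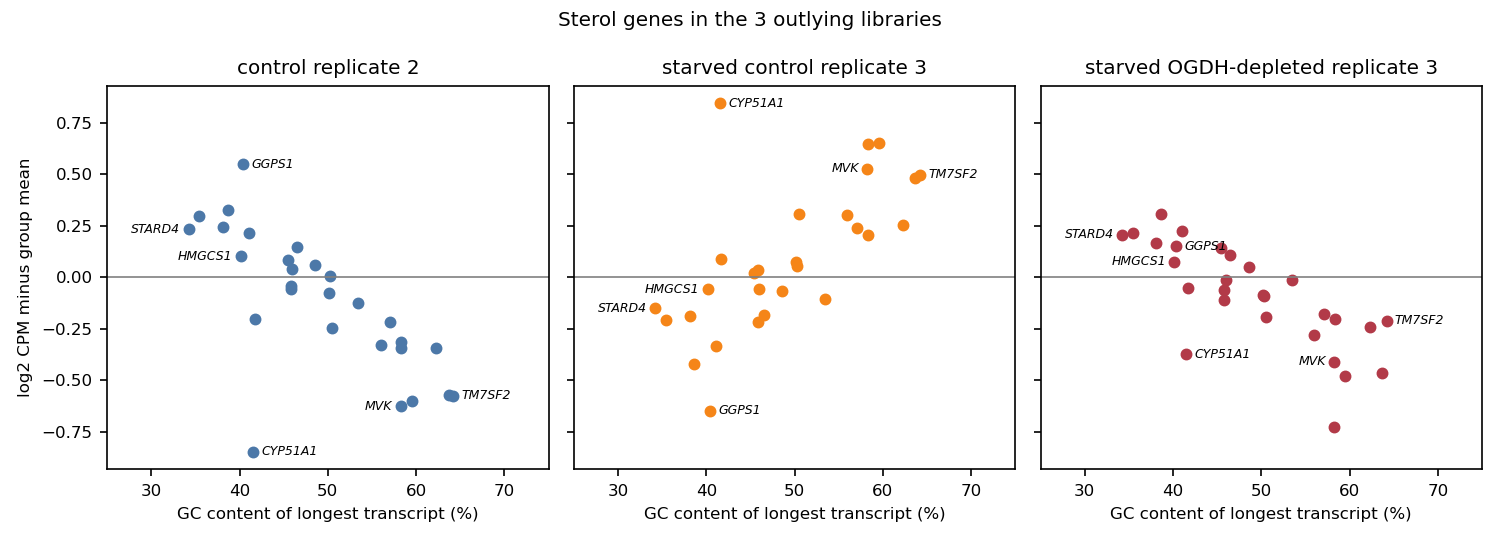
Deviation of each of 28 sterol genes from its group mean (log2 CPM, y axis) against the GC content of its longest transcript (%, x axis), in library 2 of fed control, library 3 of starved control and library 3 of starved depleted cells; each point is 1 gene. Genes of high GC content lie below 0 in the left and right panels (fed control and starved depleted cells) and above 0 in the middle panel (starved control cells).

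Scaled by the merged exon length of each gene, the most abundant sterol messenger in fed control cells was that of FDFT1, squalene synthase, at 23.8 ± 0.89 CPM per kilobase. TMEM97, an endoplasmic reticulum protein that binds sterols (18.9 ± 1.05), SCAP (18.4 ± 3.53), SREBF2 (17.6 ± 2.22), the phosphomevalonate kinase gene PMVK (16.7 ± 6.19) and NSDHL, a sterol C4 decarboxylase (15.8 ± 2.30), followed on the same scale with overlapping spreads. CYP51A1, lanosterol demethylase, was the lowest tested gene at 0.65 ± 0.28 CPM per kilobase. In its case 74.1% of the merged exon bases are shared with other genes in the annotation, and fragments there were not counted, so its level is understated. The order changed with starvation: INSIG1 was the 10th most abundant per length in fed control cells, at 10.3 ± 0.32 CPM per kilobase, and ranked 1 in starved control cells, at 37.7 ± 1.30. HMGCS1 moved from rank 15 (7.15 ± 0.45 CPM per kilobase) to rank 4 (21.2 ± 1.02), with 37.7% of its merged exon bases shared with another gene and likewise not counted. The share was 41.0% for GGPS1 and 36.4% for EBP. Merged exons can also be longer than the longest transcript, as for SC5D (10054 against 2456 bases) and FDPS (3718 against 2017). For PMVK they are shorter (1002 against 1280), so the order depends on the length used.

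**Figure D2:**
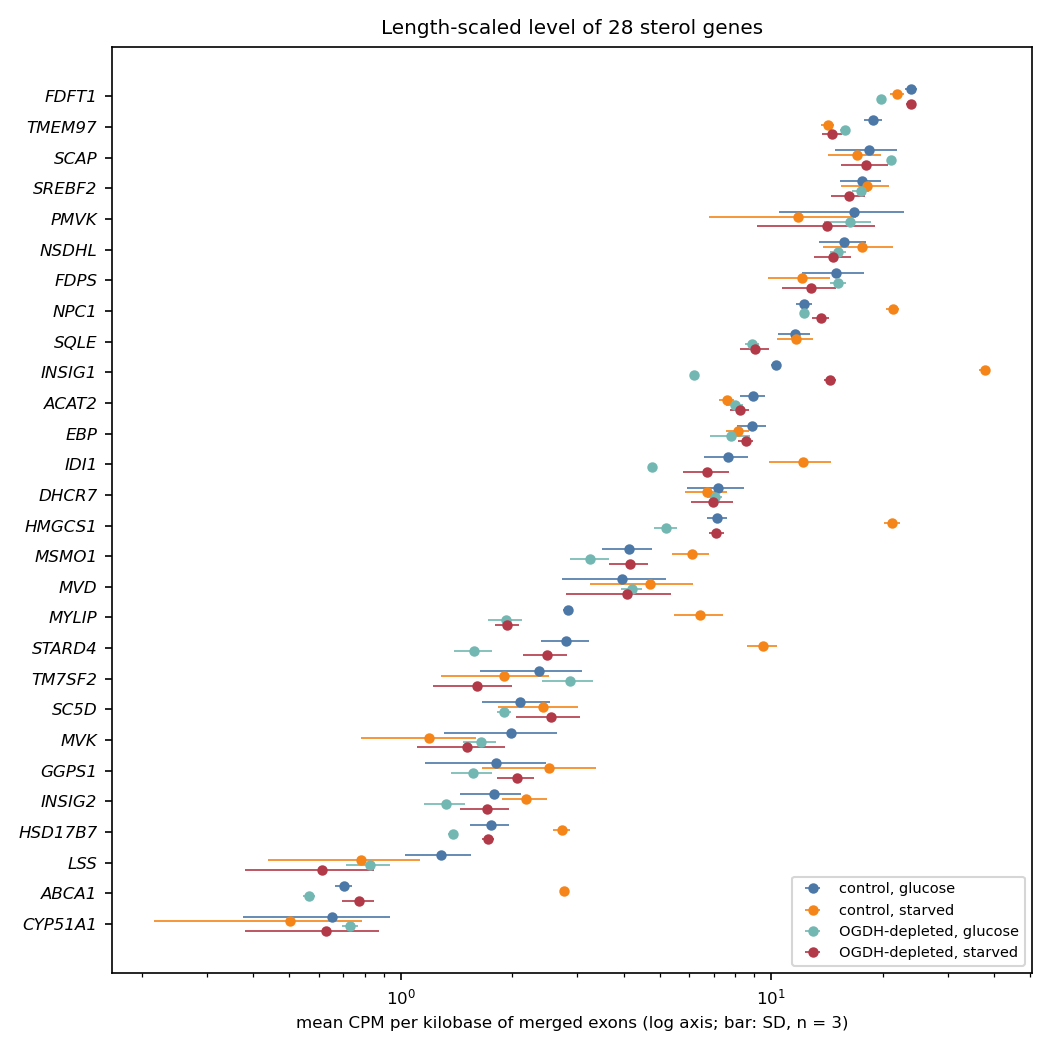
Mean length-scaled level of 28 sterol genes in the 4 groups (x axis: CPM per kilobase of merged exons, log scale; bars: SD of 3 libraries), ordered from top to bottom by the level in fed control cells. INSIG1, HMGCS1, STARD4, NPC1, ABCA1 and MYLIP have their starved control point to the right of the other 3 groups.

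HMGCS1, INSIG1 and STARD4 passed the test in all 5 contrasts described below, and SREBF2 is the gene of the factor itself, so the promoters of these 4 are shown. They come from RefSeq (GRCh38.p14) and end before the transcript starts of both RefSeq and the annotation of the count table. Capitals mark matches, on either strand, to CCAAT (the NF-Y box), to CCACG (the part of the endoplasmic reticulum stress element bound by ATF6 and XBP1) and to TCACNCCAC (a core of the sterol regulatory element). The HMGCS1 stretch is chr5:43313513-43313662, minus strand, the INSIG1 stretch chr7:155297628-155297775, plus strand, the STARD4 stretch chr5:111512591-111512785, minus strand, and the SREBF2 stretch chr22:41832855-41833078, plus strand.
HMGCS1: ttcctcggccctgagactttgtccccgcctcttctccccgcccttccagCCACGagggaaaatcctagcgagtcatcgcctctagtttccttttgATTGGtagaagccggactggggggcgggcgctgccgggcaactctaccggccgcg
INSIG1: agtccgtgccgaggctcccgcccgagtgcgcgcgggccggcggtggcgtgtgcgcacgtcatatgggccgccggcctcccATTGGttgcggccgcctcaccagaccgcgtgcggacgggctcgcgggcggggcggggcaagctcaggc
STARD4: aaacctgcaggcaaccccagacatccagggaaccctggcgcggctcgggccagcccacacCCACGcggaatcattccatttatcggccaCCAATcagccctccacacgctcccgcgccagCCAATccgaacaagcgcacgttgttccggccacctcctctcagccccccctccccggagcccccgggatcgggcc
SREBF2: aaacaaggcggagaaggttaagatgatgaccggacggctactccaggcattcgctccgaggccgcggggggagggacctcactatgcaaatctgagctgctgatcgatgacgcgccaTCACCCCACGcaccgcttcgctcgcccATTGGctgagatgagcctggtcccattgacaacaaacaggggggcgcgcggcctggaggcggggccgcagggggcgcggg

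Each of these 4 stretches holds at least 1 CCAAT box, and STARD4 has 2 of them. The SREBF2 stretch also matches TCACNCCAC, where it overlaps a CCACG. Over the whole RefSeq windows of 300 bases (250 before and 50 after the start), 25 of the 29 genes had an entry. CCAAT was found in 17 of these 25 promoters (68%), against 35.7% of 27305 promoters, and CCACG also in 17 (68%), against 37.9%. The 27305 were not limited to genes that passed the filter on low counts, as these 25 did. The shares therefore do not compare like sets, and their difference was not tested. TCACNCCAC was found in 1 of 25 (4%), that of SREBF2, against 1.15% of all. An exact LXR consensus, AGGTCA followed by NNNN and a second AGGTCA, was in none of the 25, against 0.0183% of all. So rare a string would be missing from nearly any 25 promoters, and looser forms were not searched. This count therefore cannot tell whether these genes have LXR sites. No entry was held for ACAT2, FDFT1, SQLE and ABCG1. These are matches of letters in a fixed window, and binding was not measured.

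Starvation of control cells raised the early enzyme HMGCS1, the SREBP brake INSIG1, the sterol carrier STARD4 and the exporter ABCA1 by 2.97-fold to 3.92-fold between group means. In the same comparison MYLIP, a ubiquitin ligase induced by LXR, rose 2.28-fold and NPC1, which moves cholesterol out of lysosomes, 1.73-fold. Known targets of SREBP-2 and of LXR were both among the genes that rose, while most enzymes of the pathway did not pass the test. By edgeR's quasi-likelihood test with Benjamini-Hochberg adjustment over 18526 genes (threshold 0.05), 10 of 28 sterol genes passed, 9 higher and 1 lower. That is 35.7% of them, against 34.5% of all genes, so their share of calls was near the background. Of the sterol genes 32.1% were higher, against 17% of all genes, and 3.57% lower, against 17.5%. The median log2 fold change was 0.10 over the sterol genes and -0.02 over all genes.

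HMGCS1, the cytosolic HMG-CoA synthase, was at 46.2, 50.8 and 45.1 CPM in fed control libraries 1, 2 and 3 and at 139, 148 and 135 CPM in the starved ones. All 3 starved libraries lay far above the fed ones, and the log2 fold change was 1.57 (SE 0.093, edgeR adjusted p = 3.17e-07). IDI1, which isomerises isopentenyl diphosphate, was at 30.1, 37.9 and 30.3 CPM fed and at 58.4, 57.9 and 41.0 CPM starved. The groups did not overlap, although starved replicate 3 came close to fed replicate 2, and the log2 fold change was 0.68 (SE 0.156, edgeR adjusted p = 0.00576).

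Among the enzymes after lanosterol, HSD17B7, a sterol keto reductase, and MSMO1, a C4 methyl oxidase, were higher. HSD17B7 was at 8.88, 7.22 and 9.0 CPM in fed libraries and at 12.6, 12.7 and 13.8 CPM in starved ones, a log2 fold change of 0.64 (SE 0.113, edgeR adjusted p = 0.00111). MSMO1 was at 10.8, 13.8 and 10.7 CPM fed and 19.1, 17.9 and 15.2 CPM starved. Neither gene had overlapping groups. The log2 fold change of MSMO1 was 0.56 (edgeR adjusted p = 0.0137), and it did not pass when fed control replicate 1 or 3 or starved control replicate 1 was left out (adjusted p 0.0538 to 0.0590, within a range of 0.000232 to 0.0590 over its 15 alternatives).

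INSIG1 had the smallest p of the sterol genes. It was at 37.7, 38.8 and 36.5 CPM in fed libraries and at 140.0, 141 and 132 CPM in starved ones, with a log2 fold change of 1.87 (SE 0.080, edgeR adjusted p = 2.93e-08). The replicates within each group lay close together beside this gap. The other genes of the SREBP system did not pass: SREBF2 was at 133 ± 16.8 CPM fed and 137 ± 20.6 CPM starved, SCAP at 116 ± 22.2 and 107 ± 17.2 CPM, and INSIG2, the second retention gene, at 7.03 ± 1.33 and 8.61 ± 1.21 CPM.

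All 3 transport genes passed, and they did not move together. STARD4 was at 14.98, 18.6 and 14.2 CPM in fed libraries and at 58.5, 55.03 and 48.5 CPM in starved ones (log2 fold change 1.76, SE 0.148, edgeR adjusted p = 4.57e-06). NPC1 was at 125, 119.9 and 113 CPM fed and at 208, 198 and 215 CPM starved (log2 fold change 0.79, edgeR adjusted p = 2.44e-05). In both genes every starved library exceeded every fed one. TMEM97, a partner of NPC1 and itself a known SREBP target, went the other way, from 54.1, 53.1 and 58.9 CPM to 39.7, 42.5 and 42.6 CPM, without overlap (log2 fold change -0.41, edgeR adjusted p = 0.00375).

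ABCA1 exports cholesterol from the cell to apolipoproteins. It was at 7.85, 8.44 and 7.62 CPM in fed libraries and at 30.6, 31.4 and 31.7 CPM in starved ones, with a log2 fold change of 1.97 (SE 0.105, edgeR adjusted p = 1.45e-07). MYLIP was at 8.96, 8.44 and 8.66 CPM fed and at 19.6, 22.9 and 16.9 CPM starved (log2 fold change 1.19, SE 0.134, edgeR adjusted p = 4.48e-05). Both tested LXR targets of this set were thus well separated between the groups.

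The 18 tested genes that did not pass included ACAT2, MVK, PMVK, MVD, FDPS, GGPS1, FDFT1 and SQLE before lanosterol, and LSS, CYP51A1, TM7SF2, NSDHL, EBP, SC5D and DHCR7 at or after its formation. MVK, mevalonate kinase, had the lowest fold change of these (log2 -0.73, SE 0.297, edgeR adjusted p = 0.0798), at 22.6, 11.03 and 19.97 CPM fed and 9.20, 8.06 and 14.9 CPM starved. Its highest starved library exceeded its lowest fed library, and those are starved control 3 and fed control 2, described above. Without the 3 libraries 23 of 28 sterol genes (82.1%) passed, 12 higher and 11 lower, all 10 above among them, and 60.5% of all genes passed in that fit. As said above, starvation and GC displacement cannot be told apart in the control libraries of that fit. MVK then had a log2 fold change of -1.31 and LSS, lanosterol synthase, of -1.26, against -0.71 with all libraries, and 8 of the 9 GC-rich genes were lower. In place of leaving libraries out, a GC offset was fitted, which also removes differences between groups that follow GC content. With it 1 of the 9 was lower, MVK (-0.56, edgeR adjusted p = 0.0164), and 2 were higher. The higher ones were MVD (0.48, adjusted p = 0.00339) and SREBF2 (0.20, adjusted p = 0.0289). MVD was at -0.27 (adjusted p = 0.108) and SREBF2 at -0.20 (adjusted p = 0.0288) without the 3 libraries, so for both genes the direction differed between these fits. With no filter on low counts, MVK (-0.76, adjusted p = 0.0201) and LSS (-0.74, adjusted p = 0.0487) passed as lower, and so they did without starved control replicate 3 alone (-1.05 and -1.11, adjusted p 0.0187 and 0.0213). MVK also passed as lower without fed control replicate 2 alone (edgeR adjusted p = 0.0133). GGPS1 passed as higher when either of these libraries was left out.

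**Figure D3:**
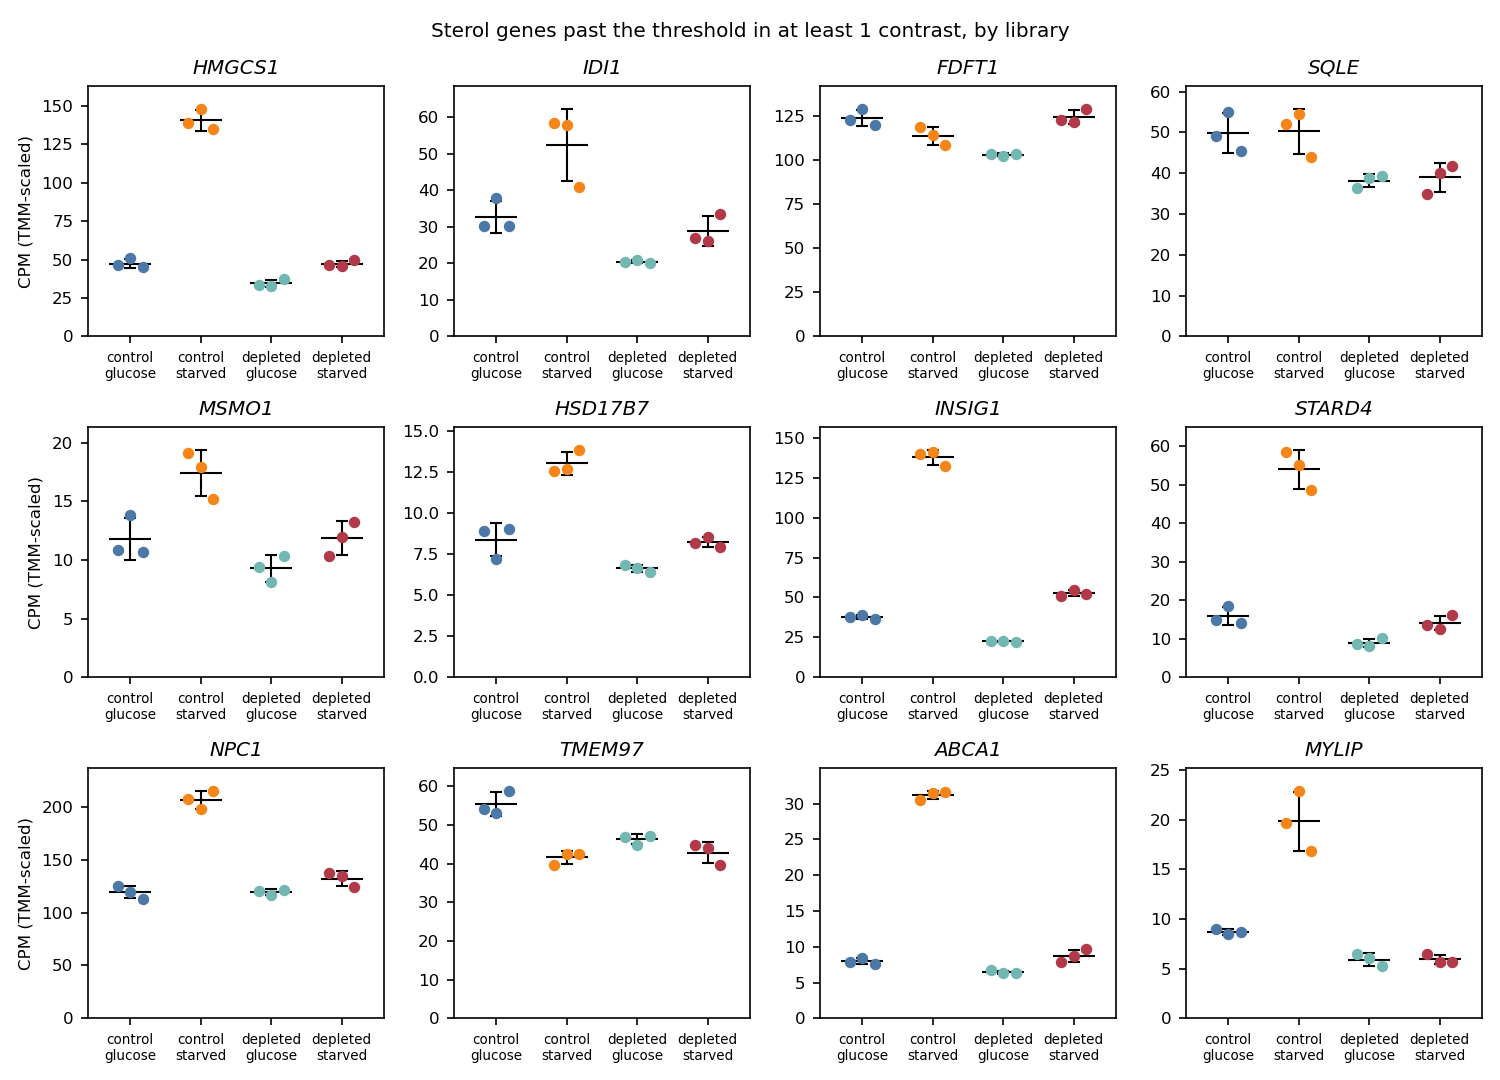
Level of the 12 sterol genes that passed the test in at least 1 contrast (y axis: CPM after TMM scaling, from 0), in the 4 groups; each point is 1 library, the line is the group mean and the bar its SD (n = 3). In HMGCS1, INSIG1, STARD4, NPC1, ABCA1 and MYLIP the 3 starved control libraries stand above all other libraries.

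Starvation of OGDH-depleted cells raised INSIG1, HMGCS1, STARD4 and ABCA1, by 1.36-fold to 2.33-fold between group means. These 4 of 28 genes (14.3%) passed, all higher, while over all genes 2.42% were higher, 4.76% lower and 7.18% called either way. The median log2 fold change was 0.04 over the sterol genes and 0.02 over all genes. INSIG1 was at 22.5, 23.1 and 22.3 CPM in fed depleted libraries and at 50.9, 54.9 and 52.2 CPM in starved ones, with a log2 fold change of 1.22 (SE 0.079, edgeR adjusted p = 1.09e-05).

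The other calls were smaller. HMGCS1 was at 33.4, 32.5 and 37.2 CPM fed and at 46.2, 45.6 and 49.6 CPM starved, a log2 fold change of 0.45 (SE 0.092, edgeR adjusted p = 0.0127). STARD4 was at 8.73, 8.04 and 10.1 CPM fed and at 13.7, 12.4 and 16.1 CPM starved (log2 fold change 0.65, SE 0.148, edgeR adjusted p = 0.0238). ABCA1 was at 6.69, 6.27 and 6.27 CPM fed and at 7.87, 8.71 and 9.62 CPM starved (log2 fold change 0.44, SE 0.105, edgeR adjusted p = 0.0274). In all 4 genes the starved libraries lay above the fed ones.

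Those 3 calls depended on single libraries or settings. HMGCS1 did not pass without fed depleted replicate 1 or 2 (edgeR adjusted p 0.0671 and 0.0700), STARD4 without fed depleted replicate 1 or 2 or starved depleted replicate 3 (0.0788 to 0.107), and ABCA1 without any of the 6 libraries but starved depleted replicate 1 (0.0767 to 0.107). With an offset for GC content the log2 fold change of HMGCS1 was 0.21 (adjusted p = 0.242, the highest of its 15 alternatives, whose lowest was 1.1e-05) and that of STARD4 0.28 (adjusted p = 0.221, the highest of 15, with a lowest of 0.00131).

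Among the genes that did not pass in depleted cells, MYLIP was at 6.44, 6.05 and 5.23 CPM fed and at 6.48, 5.71 and 5.70 CPM starved, so its groups overlapped. NPC1 was at 119 ± 2.75 CPM fed and 132 ± 7.14 CPM starved. FDFT1 was at 103, 102 and 103 CPM fed and at 123, 121 and 129 CPM starved, without overlap (log2 fold change 0.27, SE 0.077, edgeR adjusted p = 0.0571). IDI1 was at 20.4, 20.8 and 20.01 CPM fed and at 26.9, 26.2 and 33.6 CPM starved (log2 fold change 0.50, SE 0.157, edgeR adjusted p = 0.0817). In all, 10 of 28 sterol genes (35.7%) had every starved library above every fed one, against 20.6% of all genes. Without the 3 libraries 8 of 28 (28.6%, against 17.6% of all genes in that fit) passed, 7 higher and 1 lower, adding FDFT1, HSD17B7 and IDI1 as higher and TM7SF2, a sterol reductase, as lower.

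The starvation response itself differed between control and depleted cells for 7 of 28 genes (25%), against 17.3% of all genes. For 6 (21.4%, against 8.95% of all genes) the difference between the responses was negative: ABCA1, MYLIP, HMGCS1, STARD4, INSIG1 and NPC1. The response of ABCA1 was a log2 fold change of 1.97 in control and 0.44 in depleted cells, a difference of -1.53 (SE 0.147, edgeR adjusted p = 4.49e-05). MYLIP responded by 1.19 in control and 0.01 in depleted cells on the log2 scale, a difference of -1.17 (SE 0.191, edgeR adjusted p = 0.00156). Both tested LXR targets of this set responded less in depleted cells.

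Among the SREBP-2 targets with a negative difference between responses, HMGCS1 had one of -1.12 (SE 0.129, edgeR adjusted p = 0.000156) and STARD4 of -1.11 (SE 0.207, edgeR adjusted p = 0.00353). INSIG1 had one of -0.65 (SE 0.110, edgeR adjusted p = 0.00199), and its rise in depleted cells was 2.33-fold between group means. NPC1 also had -0.65 (SE 0.116, edgeR adjusted p = 0.00273). These 6 differences passed under all 20 alternatives tried for each. Not all enzymes of the route behaved this way: SQLE, FDPS and LSS had differences of 0.02, 0.06 and 0.28 (edgeR adjusted p 0.961, 0.906 and 0.753). Over the 28 genes, 13 differences were positive and 15 negative.

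FDFT1 was the 1 sterol gene with a positive difference (3.57%, against 8.3% of all genes): 0.39 on the log2 scale (SE 0.109, edgeR adjusted p = 0.0278). Its 3 starved control libraries, at 118, 114 and 108 CPM, lay below the fed ones, at 123, 129 and 119.8 CPM, whereas the starved depleted libraries lay above their fed ones. Neither of these responses passed alone, and the difference did not pass without fed control replicate 1, starved control replicate 2 or 3, any of the fed depleted replicates, or starved depleted replicate 1 or 2 (adjusted p 0.0504 to 0.0711, within 9.97e-05 to 0.227 over 20 alternatives).

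IDI1, MSMO1 and HSD17B7, which rose in control cells and did not pass in depleted cells, had no difference between responses past the threshold (edgeR adjusted p 0.665, 0.576 and 0.197). IDI1 (-0.58, adjusted p = 0.000832) and MSMO1 (-0.54, adjusted p = 0.0251) did pass without the 3 libraries. In that fit 20 of 28 genes (71.4%, against 43% of all genes) differed in response, 10 in each direction, the 7 above among them. Of the 9 GC-rich genes 6 had a positive difference there, whereas with a GC offset none of the 9 passed in either direction and 7 of 28 genes did in all.

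**Figure D4:**
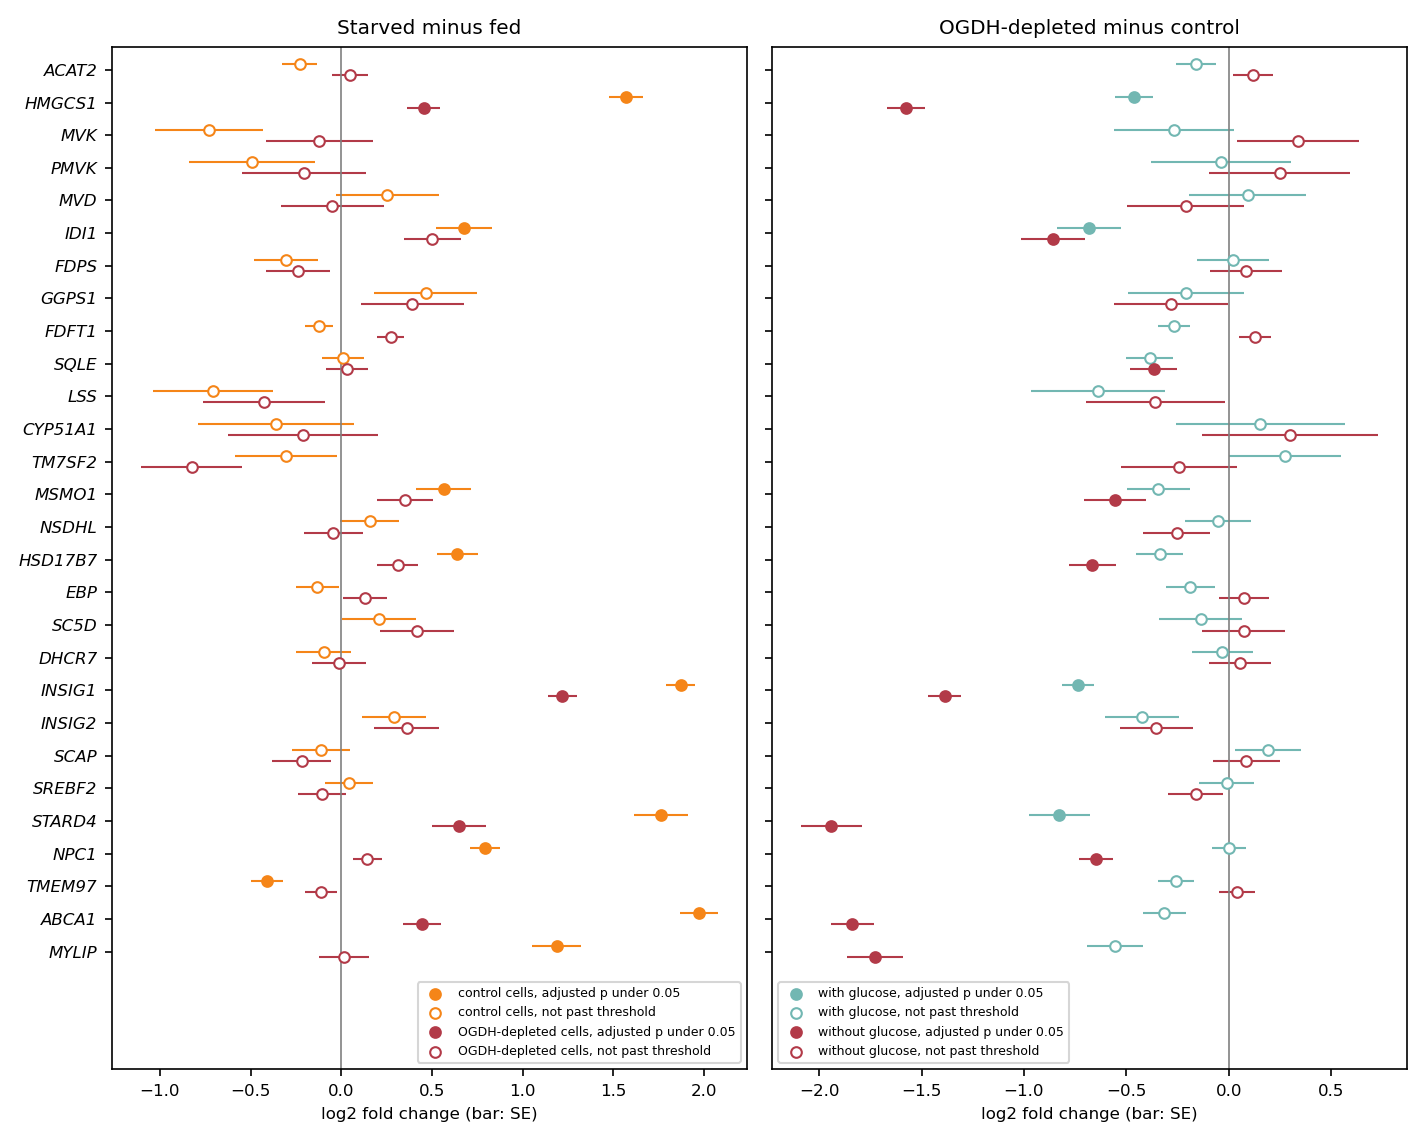
Log2 fold change with SE (x axis) of 28 sterol genes, for starvation in control and in OGDH-depleted cells (left) and for OGDH loss with and without glucose (right); filled points have an edgeR adjusted p under 0.05. ABCA1, MYLIP, HMGCS1 and STARD4 show the widest gaps between their filled control point and their depleted point on the left.

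With glucose, OGDH loss lowered INSIG1, STARD4, IDI1 and HMGCS1. Depleted cells held 22.6 ± 0.39 CPM of INSIG1 against 37.7 ± 1.15 CPM in control cells, and 8.96 ± 1.06 CPM of STARD4 against 15.9 ± 2.35 CPM. The log2 fold changes were -0.74 (SE 0.079, edgeR adjusted p = 0.000793) and -0.83 (SE 0.148, edgeR adjusted p = 0.0133). IDI1 was at 20.4 ± 0.42 CPM in depleted and 32.8 ± 4.40 CPM in control cells (log2 fold change -0.68, edgeR adjusted p = 0.0419), and HMGCS1 at 34.4 ± 2.49 and 47.4 ± 3.01 CPM (-0.46, edgeR adjusted p = 0.0219). None of these 4 genes had overlapping groups.

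These 4 of 28 genes are 14.3%, all lower, while over all genes 1.45% were lower, 1.59% higher and 3.04% called either way. The median log2 fold change was -0.23 over the sterol genes and -0.01 over all genes. Of the 28, 14 (50%) had every depleted library below every control library, against 12.9% of all genes. Besides the 4 called, these were ACAT2, FDFT1, SQLE, LSS, MSMO1, HSD17B7, INSIG2, TMEM97, ABCA1 and MYLIP. Of these, MYLIP had a log2 fold change of -0.56 (edgeR adjusted p = 0.0531), SQLE, squalene epoxidase, of -0.39 (0.112), ABCA1 of -0.31 (0.158) and FDFT1 of -0.27 (0.101).

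INSIG1 passed under all 15 alternatives. IDI1 did not pass when any of the 6 libraries was left out (edgeR adjusted p 0.0725 to 0.162), HMGCS1 did not when any of these libraries other than depleted replicate 3 was left out (0.0540 to 0.123), and STARD4 did not without depleted replicate 1 or 2 (0.0785 and 0.0801). HMGCS1 also failed the test with the GC offset (log2 fold change -0.35, adjusted p = 0.0731), with no filter on low counts (0.155), with the replicate number as a block (0.0560) and with the compared groups fitted alone (0.0946). Its adjusted p ran from 1.73e-05 to 0.155 over 15 alternatives. STARD4 did not pass with the compared groups alone (0.0502), nor IDI1 with the block (0.0864). DESeq2 called 8 of 28 genes (28.6%, against 7.49% of the 15650 genes to which it gave an adjusted p), and 11 passed without the 3 libraries (39.3%, against 10.8%), all lower in both cases and with the 4 above among them.

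Without glucose, OGDH loss lowered 10 sterol genes, most of all STARD4, ABCA1, MYLIP, HMGCS1 and INSIG1, whose mean levels were 2.62-fold to 3.84-fold lower in starved depleted than in starved control cells. The 10 are 35.7% of 28, all lower, while over all genes 15% were lower, 13.7% higher and 28.7% called either way. The median log2 fold change was -0.25 over the sterol genes and 0.00 over all genes. This comparison shares its starved control libraries with the starvation response above, so the pair of results is not independent.

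STARD4 was at 14.1 ± 1.90 CPM in starved depleted and 54.0 ± 5.06 CPM in starved control cells (log2 fold change -1.94, SE 0.149, edgeR adjusted p = 4.01e-06). ABCA1 was at 8.73 ± 0.88 and 31.2 ± 0.58 CPM (-1.84, SE 0.105, edgeR adjusted p = 5.15e-07), and MYLIP at 5.96 ± 0.45 and 19.8 ± 3.01 CPM (-1.73, SE 0.137, edgeR adjusted p = 4.83e-06). HMGCS1 was at 47.1 ± 2.17 and 141 ± 6.75 CPM (-1.58, SE 0.093, edgeR adjusted p = 6.55e-07), and INSIG1 at 52.6 ± 2.02 and 138 ± 4.73 CPM (-1.39, SE 0.079, edgeR adjusted p = 5.15e-07). Starved depleted cells had about the HMGCS1 level of fed control cells, 47.4 ± 3.01 CPM, and more INSIG1 than these.

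The other 5 that fell were IDI1 (log2 fold change -0.86, edgeR adjusted p = 0.00173), HSD17B7 (-0.67, 0.00113), NPC1 (-0.65, 0.000153), MSMO1 (-0.56, 0.0174) and SQLE (-0.37, 0.0336). SQLE was at 52.2, 54.6 and 44.0 CPM in starved control and at 35.0, 40.0 and 41.9 CPM in starved depleted libraries, with a narrow gap between the groups. MSMO1 and SQLE did not pass without starved control replicate 1 or 2 or starved depleted replicate 1 or 2 (edgeR adjusted p 0.0514 to 0.0691 and 0.0750 to 0.122). Without the 3 libraries 19 of 28 passed (67.9%, against 52.6% of all genes in that fit), 6 higher and 13 lower. That fit adds 5 GC-rich genes as higher, and all 10 above were among its calls. In the starved libraries of that fit, OGDH loss and GC displacement cannot be told apart. With a GC offset none of the 9 GC-rich genes was higher and 2 were lower.

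Summed by role on the length scale, the LXR targets stood at 3.49 to 3.61 CPM per kilobase in fed control, 8.29 to 10.2 in starved control, 2.25 to 2.69 in fed depleted and 2.62 to 2.81 in starved depleted libraries. The transport genes stood at 33.8 to 34.2, 44.6 to 45.3, 28.7 to 30.4 and 29.2 to 31.8 CPM per kilobase in the same order. The SREBP system genes stood at 42.2 to 51.3, 72.1 to 79.5, 44.9 to 47.0 and 45.7 to 53.1 CPM per kilobase. In these 3 roles the starved control libraries exceeded all others. Within the SREBP system INSIG1 alone passed with starvation of control cells, moving from 10.3 to 37.7 CPM per kilobase. Within transport TMEM97 fell from 18.9 to 14.2. The condensation and mevalonate enzymes stood at 30.4 to 46.9, 42.6 to 54.1, 32.7 to 38.7 and 28.9 to 42.5 CPM per kilobase, with fed control libraries overlapping the other 3 groups. The isoprenoid and squalene enzymes stood at 58.1 to 60.7, 56.9 to 62.3, 49.6 to 50.8 and 54.2 to 55.03 CPM per kilobase, so that all depleted libraries lay below all control libraries. The enzymes from lanosterol formation on stood at 38.9 to 47.8, 42.5 to 51.2, 39.7 to 42.2 and 38.9 to 42.9 CPM per kilobase, with overlap between most groups.

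Of 55 other genes of sterol sensing, acetyl-CoA supply, non-sterol branches, transport and oxysterol metabolism, 51 were tested. Starvation of control cells raised 11 (21.6%, against 17% of all genes) and lowered 13 (25.5%, against 17.5%). OGDH loss without glucose raised 13 (25.5%, against 13.7%) and lowered 7 (13.7%, against 15%). Their starvation response differed between control and depleted cells for 13 (25.5%, against 17.3%), 8 with a positive and 5 with a negative difference. Starvation of depleted cells called 1 (1.96%, against 7.18%), the dolichol kinase gene DOLK (log2 fold change -0.45, edgeR adjusted p = 0.00950), and OGDH loss with glucose called 1 (1.96%, against 3.04%), CAV1, a caveolar coat protein gene (-0.55, 0.00749). The smallest p in starved control cells belonged to OSBP, a sterol transfer protein of membrane contact sites, with a log2 fold change of 1.17 (SE 0.077, edgeR adjusted p = 6.41e-07). OSBP was also lower with OGDH loss in starved cells (-1.08, edgeR adjusted p = 2.17e-06), and its difference between responses was -1.15 (edgeR adjusted p = 3.62e-05). Of the 7 tested genes of LXR and oxysterol metabolism, 0 had a positive fold change with starvation of control cells. Their median log2 fold change was -0.62, against -0.02 over all genes, and LPCAT3 had the smallest p (-0.62, edgeR adjusted p = 0.00353). With OGDH loss in starved cells LPCAT3 was higher (0.72, edgeR adjusted p = 0.00177), and its difference between responses was 0.61 (edgeR adjusted p = 0.0409). In each of these comparisons LPCAT3 had the opposite sign to ABCA1 and MYLIP.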

How the data were processed

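Sample titles gave each library its group and replicate number. The authors deposited unnormalised counts of read pairs in exons, summed by gene name. They used featureCounts 2.0.1 without strand, and pairs that hit several genes or places in the genome were not counted, per the file headers. The submitters' processing notes list Subread and hg38. Which aligner was used is not given in the sources used here.

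Counts were taken as deposited. edgeR 4.0.16 (R 4.3.3) filterByExpr (minimum count 10, minimum total count 15) kept 18526 of 61209 gene names. The quasi-likelihood test was fitted with TMM scaling in 1 model of 4 group means over 12 libraries, with Benjamini-Hochberg adjustment of p over all tested genes of a contrast. The contrasts share groups and are not independent of each other. The test was also run on simulated counts, with no outcome given here, so that run does not measure its error rate in these libraries. GC content is that of the longest GENCODE transcript.

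The members, lists and motifs were chosen with earlier results of these data known. Every member past the threshold is named, and the others are given by level or by name. Other pathway genes are given as counts, with the gene of smallest p named. No library repeats another, since replicates differed by a chi-square of 3.91 to 160.3 per degree of freedom. Alternatives were other scalings (RLE, upper quartile), other filters, DESeq2 1.42.0, a replicate block, fits of the compared groups alone, and leaving out each library. Leaving out 3 libraries together and a GC offset (lowess span 0.3) were added after seeing the data. The offset was fitted to deviations from the mean of all 12 libraries, not from group means.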

Additional observations from a re-analysis of the deposited data

Results flagged for a closer look

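For 7 sterol genes the starvation response differed between OGDH-depleted and control cells by edgeR's test of the difference itself. As depleted minus control on the log2 scale, the difference was -1.53 for ABCA1, -1.17 for MYLIP, -1.12 for HMGCS1, -1.11 for STARD4, -0.65 for INSIG1, -0.65 for NPC1 and 0.39 for FDFT1. The difference for FDFT1 did not pass in 10 of 20 alternatives. The other 6 passed in all 20.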

How the results depend on the processing

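The 28 tested genes gave 35 calls over the 5 contrasts. Over 560 recalculations of these calls none changed direction, 501 stayed past the threshold and 59 did not, and 25 of the 35 calls passed under every alternative tried for them. The replicate block gave 2 sterol genes past the threshold for starvation in depleted cells and 2 for OGDH loss with glucose, against 4 each. The labels do not say whether replicate numbers pair the samples. Correlations of same-numbered deviations ran from -0.66 to 0.61, and 5 of 12 libraries correlated best with their own number. Over all tested genes these deviations themselves correlated with GC content at -0.64 to 0.56, so the check cannot decide about pairing. Fitting the compared groups alone gave 2 for OGDH loss with glucose, and DESeq2 gave 8. Without the 3 libraries that deviated most the counts were 23 for starvation in control and 8 in depleted cells, 11 for OGDH loss in fed and 19 in starved cells, and 20 for the difference between responses, against 10, 4, 4, 10 and 7. The cause was not tested. Leaving out each library gave 9 to 13, 1 to 4, 1 to 3, 8 to 10 and 6 to 7. Where leaving out a library left an arm with 2 samples, the spread was still shared with the other groups.

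Over all genes, calls numbered 6400, 1330, 563, 5310 and 3196 in the same order. Without the 3 libraries they numbered 11364, 3313, 2021, 9874 and 8077. For starvation in depleted cells DESeq2 gave 2031, the GC offset 2005 and leave-one-out 583 to 1151. For OGDH loss with glucose DESeq2 gave 1172, the GC offset 1412, the block 342, the compared groups alone 215 and leave-one-out 172 to 397. The GC offset gave 4971 differences between responses. In starved control cells SREBF2 (log2 fold change 0.04) stood at -0.0195 with upper-quartile scaling, -0.20 without the 3 libraries and -0.0877 to 0.115 when 1 library was left out. MVD (0.25) stood at -0.27 without the 3 libraries and at -0.0325 to 0.432 when 1 was left out. Levels of HMGCS1, GGPS1, EBP and CYP51A1 are understated, since 36.4% to 74.1% of their exon bases are shared with other genes.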
